A study of Homo sapiens with 6 samples.

Results

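The 10 genes described here encode integrin subunits, 6 of them α subunits (ITGA1, ITGA2, ITGA3, ITGA5, ITGA6 and ITGAV) and 4 of them β subunits (ITGB1, ITGB4, ITGB5 and ITGB6). They were taken by symbol from the 63677 gene identifiers of the count tables, and all 10 were found and passed the count filter. The set was chosen by the same contrast that is described below: ITGA1 had shared the smallest adjusted p-value of all genes in an earlier look at these libraries. The differences of the 10 genes between groups are therefore given as a description, and the counts of calls among them, which come from fits over all genes, support nothing. A further 16 integrin subunit genes were in the tables, of which 7 passed the filter.

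RNA was sequenced from SW480, an established line from a human colorectal adenocarcinoma, to ask which transcripts differ when POU5F1B is overexpressed. Cells had been stably transduced with a doxycycline-inducible lentiviral vector for green fluorescent protein (GFP, the control) or for POU5F1B, both HA-tagged per the study. POU5F1B is a retrogene copy of the pluripotency factor gene POU5F1. Each group held 3 libraries, and all 6 came from cells kept in 1 µg/mL doxycycline for 72 h, so that both groups carry an induced transgene and the drug and no group lacks them. The cells came from a single line and, per the study's methods, were selected with puromycin after transduction; the sources used here do not say whether the replicates were separate cultures, so the errors measure only the spread between these libraries.

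Integrins are heterodimers of an α and a β chain that cross the plasma membrane and tie the extracellular matrix to the actin cytoskeleton. The α chain mostly sets the ligand. The α1 and α2 chains pair with β1 and bind collagens, α3 and α6 bind laminins, and α5 and αV bind RGD-containing proteins such as fibronectin and vitronectin. In intestinal epithelium the α6β4 pair anchors cells to the basement membrane through hemidesmosomes, while αV pairs with β5 or β6, the latter an activator of latent TGF-β.

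The libraries held from 10767947 to 12787637 counts. Levels are in CPM, the count relative to the TMM-scaled library size. Before this scaling, 3 counts corresponded to 0.235 to 0.279 CPM. The induced transcript itself, POU5F1B, was almost absent from GFP cells (6, 5 and 1 counts) and reached 15027, 11393 and 1458 counts in POU5F1B replicates 1, 2 and 3, so that POU5F1B replicate 3 held much less of the induced transcript than its group. GFP replicate 3 stood apart from the other 5 libraries, at 83.9 on the first principal component against −26.6 to 4.29, and it was given a quality weight of 0.111. Some genes were counted mainly in both replicate 3 libraries. TSPAN8 had 2, 0 and 285 counts in GFP and 1, 0 and 164 in POU5F1B replicates 1, 2 and 3. NPNT had 3, 4 and 203 against 4, 1 and 77, and CDH17 0, 0 and 77 against 0, 1 and 24. These genes did not pass the filter. COL4A4 went the other way, with 32, 32 and 3 against 82, 50 and 3. What the replicate 3 libraries share was not tested. Epithelial markers summed to 6067 to 8994 CPM in GFP and 7416 to 8497 CPM in POU5F1B cells. EPCAM, an epithelial surface protein gene, was 86.8 and 89.4 CPM in GFP replicates 1 and 2 and 519 CPM in GFP replicate 3, against 252 to 331 CPM in POU5F1B cells. Of the 10 epithelial markers 7 were tested, of which 5 had a positive and 2 a negative log2 difference (POU5F1B minus GFP); 1 had an unadjusted limma voom p-value under 0.05 and none passed after adjustment. CDH1 (E-cadherin) was the 1 whose groups did not overlap, at 33.7, 30.2 and 72.7 CPM in GFP and 164, 159 and 98.3 CPM in POU5F1B cells, while KRT20 and CDX2 had log2 differences of −0.31 and −0.32. Of the markers of other cells, 5 endothelial markers summed to at most 6.53 CPM and 8 leukocyte markers to at most 5.75 CPM. The 9 fibroblast markers were higher in GFP replicates 1 and 2, at 172 and 149 CPM, than in GFP replicate 3 (28.1 CPM) and the POU5F1B libraries (13.4 to 23.1 CPM), mostly through COL1A1, and COL3A1 and FAP had no counts in any library.

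ITGA1, which encodes the collagen- and laminin-binding α1 chain, was the integrin gene that differed most. Its reads numbered 1809, 2118 and 1277 in GFP replicates 1, 2 and 3 and 81, 83 and 231 in POU5F1B replicates 1, 2 and 3. In CPM these were 152, 161 and 111 against 6.37, 7.69 and 19.2. Every POU5F1B library lay below every GFP library, and the lowest GFP library was 5.78-fold above the highest POU5F1B library. The mean of the GFP libraries was 142 ± 26.8 CPM and that of the POU5F1B libraries 11.1 ± 7.07 CPM (SD, n = 3), and the fitted log2 difference, POU5F1B minus GFP, was −3.83 ± 0.38 (SE), or 14.2-fold. This was the 7th largest negative difference among 14286 genes. Within the POU5F1B group, ITGA1 was highest in replicate 3, the library with the least POU5F1B (121 CPM, against 1182 and 1056 CPM). Whether these values are related was not tested. The summed fibroblast markers were also lower in POU5F1B cells. In GFP replicate 3, the library that stood apart, these markers summed to 28.1 CPM and ITGA1 was at 111 CPM. The part of these markers in the difference was not tested. In bulk RNA, fewer cells with ITGA1 and less ITGA1 RNA per cell cannot be told apart.

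**Figure D1:**
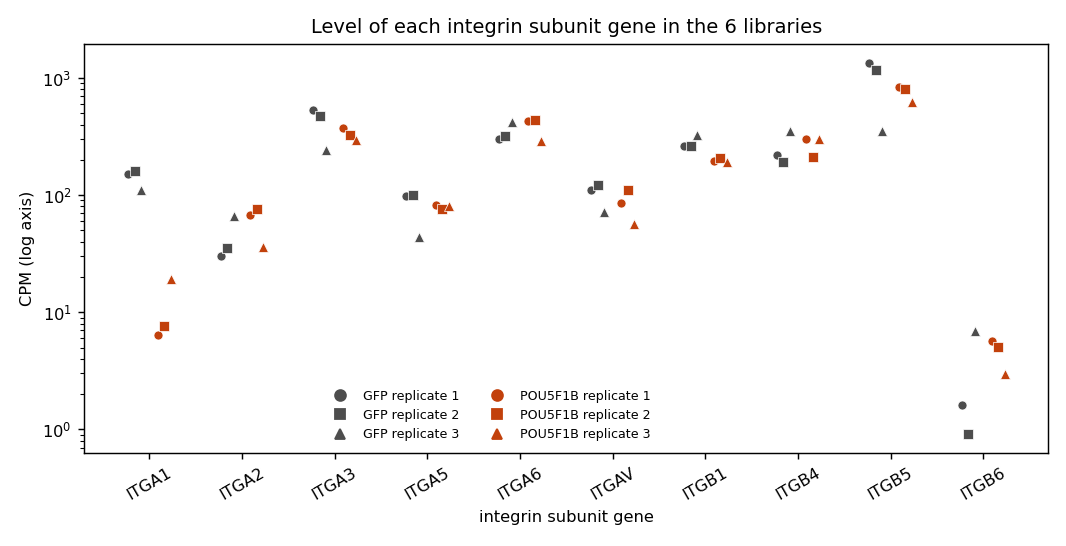
CPM (log axis) of the 10 integrin subunit genes in each of the 6 libraries, GFP in grey and POU5F1B in orange, with a marker shape for each replicate number. ITGA1 shows a gap between the groups, from 19.2 to 111 CPM, ITGB1 shows a smaller gap, and the other 8 genes overlap.

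ITGA1 spans bases 52083750 to 52255039 of chromosome 5 (GRCh37, plus strand), and ITGA2 starts 30.1 kb beyond its end on the same strand. PELO, which encodes a ribosome rescue factor, occupies 52083750 to 52099878 inside ITGA1. Both genes begin at the same base, and the whole first exon of ITGA1, 499 bp or 2.69% of its exon length, is shared with PELO. The windows that RefSeq (build GRCh38.p14) gives as promoters of ITGA1 and PELO, 250 bases before to 50 bases after the start, are 1 identical sequence. It was found once in GRCh37, where the 250 bases before the start are chr5:52083500-52083749. The corresponding bases of ITGA2 are chr5:52284932-52285181, measured from the RefSeq start at 52285182, so that the last 12 lie inside the gene as GENCODE places it. They are shown because they are the shared start region of a gene whose level differed and a gene whose level hardly did, beside the start region of the neighbouring collagen receptor gene. Capitals mark the GC box GGGCGG.
ITGA1 and PELO: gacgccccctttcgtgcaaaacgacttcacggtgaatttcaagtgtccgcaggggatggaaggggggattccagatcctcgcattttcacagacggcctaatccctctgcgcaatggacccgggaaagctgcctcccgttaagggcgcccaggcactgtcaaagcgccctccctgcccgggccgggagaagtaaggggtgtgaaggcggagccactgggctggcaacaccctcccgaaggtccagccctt
ITGA2: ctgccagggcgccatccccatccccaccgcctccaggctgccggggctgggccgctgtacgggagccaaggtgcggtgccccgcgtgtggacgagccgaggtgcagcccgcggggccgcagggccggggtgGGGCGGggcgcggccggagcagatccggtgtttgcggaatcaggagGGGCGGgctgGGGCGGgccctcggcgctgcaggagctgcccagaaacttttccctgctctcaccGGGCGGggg

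Both start regions are rich in G and C, with 62% in that of ITGA1 and PELO and 76.4% in that of ITGA2. On either strand, 6 motifs were searched in the 300-base windows: the GC box, the TATA box (TATAAA), the CCAAT box, the AP-1 site (TGACTCA), an E-box (CAGGTG) and the octamer (ATGCAAAT). The window of ITGA1 and PELO held none of these letters. That of ITGA2 held GGGCGG 4 times, a motif present in 45% of 35116 promoter windows, and none of the others. The octamer, the motif known for POU-domain factors, was in 1.77% of all windows and in 0 of the 13 windows of the 8 integrin members with an entry.

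PELO was counted 360, 386 and 372 times in GFP and 373, 307 and 340 times in POU5F1B replicates 1, 2 and 3. In CPM it was 29.4 to 32.4 in GFP and 28.3 to 29.3 in POU5F1B cells, with a log2 difference of −0.09 ± 0.13 (SE; limma voom adjusted p = 0.810). The groups of PELO were nearly equal, although every POU5F1B library lay below every GFP library, with a gap of 1.003-fold. For each PELO count there were 5.03, 5.49 and 3.43 ITGA1 counts in GFP and 0.217, 0.270 and 0.679 in POU5F1B replicates 1, 2 and 3. Reads of the shared exon could not be assigned to either gene from the counts. With both genes summed, the log2 difference was −2.12. The other genes whose exons overlap ITGA1, namely PELO-AS1, ITGA2-AS1 and RPL17P21, had at most 11 counts in any library.

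Other genes on this stretch of chromosome 5 were examined next. MOCS2, a molybdenum cofactor synthase gene, and NDUFS4, a complex I subunit gene, had log2 differences of −0.11 ± 0.18 and −0.29 ± 0.24 (SE; limma voom adjusted p = 0.851 and 0.664). ARL15, a small GTPase gene, was 44.9, 39.6 and 22.0 CPM in GFP and 14.2, 15.6 and 17.9 CPM in POU5F1B cells. Its groups did not overlap, and its log2 difference of −1.11 ± 0.31 (SE) did not pass the threshold (limma voom adjusted p = 0.285). PARP8 was 1.43, 1.37 and 12.3 CPM in GFP and 4.96 to 7.04 CPM in POU5F1B cells (log2 difference 0.99 ± 0.77; limma voom adjusted p = 0.645), with GFP replicate 3 above all others. FST, ISL1 and EMB did not pass the filter.

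**Figure D2:**
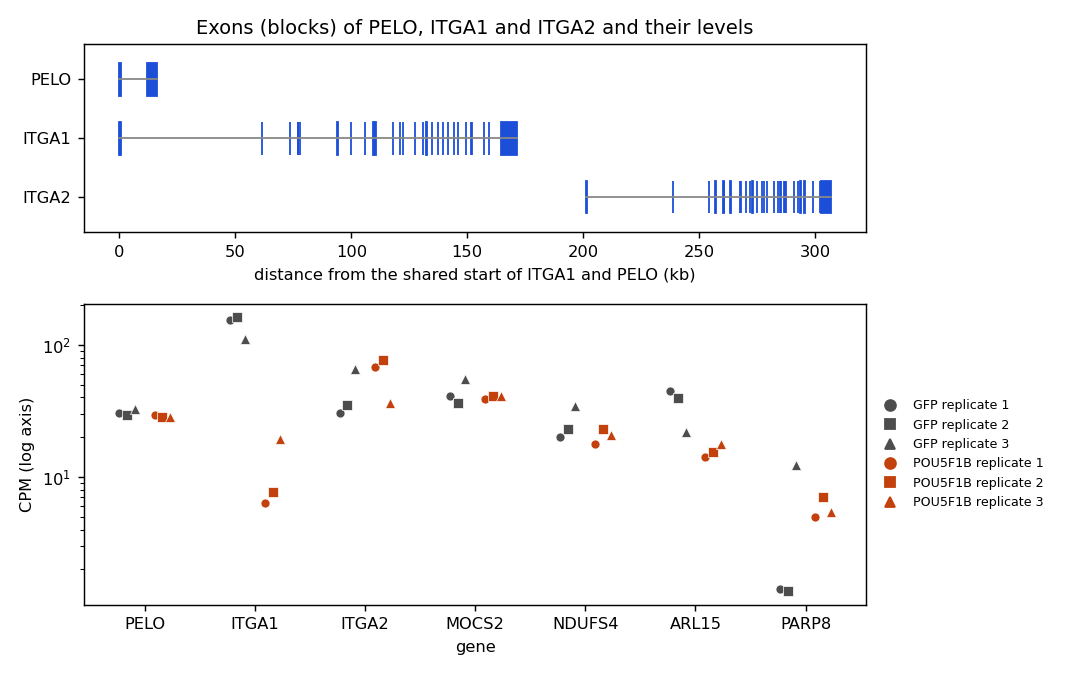
Top, exons (blocks) of PELO, ITGA1 and ITGA2 by distance in kb from the start that PELO and ITGA1 share; bottom, CPM (log axis) of these and 4 neighbouring genes in the 6 libraries. PELO stays at 28.3 to 32.4 CPM in every library, while ITGA1, which starts at the same base, runs from 6.37 to 161 CPM.

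ITGA2 encodes α2, the other main collagen-binding chain of epithelial cells, and lies at 52285170 to 52390609 on chromosome 5. It was 30.3, 35.1 and 66.0 CPM in GFP replicates 1, 2 and 3 and 67.9, 76.6 and 36.4 CPM in POU5F1B replicates 1, 2 and 3. In each group replicate 3 took the level of the other group's replicates 1 and 2, so the groups overlapped. The log2 difference over all libraries was 0.48 ± 0.38 (SE), with a GFP mean of 43.8 ± 19.4 CPM and a POU5F1B mean of 60.3 ± 21.1 CPM (SD, n = 3).

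The laminin-binding chains were among the most abundant. ITGA3 (chromosome 17, 48133332 to 48167845) was 537, 471 and 245 CPM in GFP and 375, 327 and 297 CPM in POU5F1B libraries. GFP replicate 3 was the lowest of the 6 and GFP replicates 1 and 2 the highest, with a log2 difference of −0.26 ± 0.29 (SE). ITGA6 (chromosome 2, 173292082 to 173371187), whose chain pairs with β1 or β4, was 301, 319 and 424 CPM in GFP and 432, 438 and 292 CPM in POU5F1B libraries. Here too the groups overlapped, and the log2 difference was 0.15 ± 0.21 (SE).

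The genes of the chains that bind RGD sequences overlapped between the groups as well. ITGA5 (chromosome 12, 54789045 to 54813050), which encodes the α chain of the classical fibronectin receptor, was 99.0, 99.96 and 43.6 CPM in GFP and 82.1, 75.5 and 80.4 CPM in POU5F1B libraries. All 3 POU5F1B libraries lay between GFP replicate 3 and the other GFP libraries. Its log2 difference was 0.06 ± 0.32 (SE), and −0.34 without GFP replicate 3. ITGAV (chromosome 2, 187454737 to 187545628), whose chain has several β partners, was 110, 121 and 71.9 CPM in GFP and 86.0, 110 and 56.8 CPM in POU5F1B libraries (log2 difference −0.29 ± 0.29, SE). Both replicate 3 libraries were the lowest of their group.

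ITGB1 encodes β1, the common partner of α1, α2, α3, α5 and α6, and lies on the minus strand of chromosome 10 at 33176201 to 33294720. It was 265, 262 and 323 CPM in GFP and 195, 209 and 191 CPM in POU5F1B libraries. As for ITGA1, no POU5F1B library reached a GFP library, but the gap was 1.26-fold. The means were 284 ± 34.4 and 198 ± 9.04 CPM (SD, n = 3), and the log2 difference was −0.51 ± 0.12 (SE).

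The other β subunit genes overlapped between the groups. ITGB4 (chromosome 17, 73717408 to 73753899), which encodes the hemidesmosomal partner of α6, was 222, 190 and 354 CPM in GFP and 301, 213 and 302 CPM in POU5F1B libraries (log2 difference 0.13 ± 0.26, SE). ITGB5 (chromosome 3, 124480795 to 124620265), which encodes a partner of αV in the vitronectin receptor, was 1353, 1176 and 355 CPM in GFP and 830, 802 and 619 CPM in POU5F1B libraries. GFP replicate 3 was again the lowest and GFP replicates 1 and 2 the highest of the 6 (log2 difference −0.16 ± 0.49, SE). ITGB6 (chromosome 2, 160956178 to 161056824), which encodes the epithelial partner of αV, was the least abundant member, with 19, 12 and 80 counts in GFP and 72, 55 and 36 counts in POU5F1B libraries. That was 1.601, 0.914 and 6.96 CPM against 5.66, 5.10 and 2.997 CPM, with a log2 difference of 1.04 ± 0.69 (SE), and 1.84 without GFP replicate 3.

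The groups did not overlap for 2 of the 10 members, ITGA1 and ITGB1, and both were lower in POU5F1B cells. Over all tested genes, 9.24% did not overlap and were lower and 10.2% did not overlap and were higher. With limma voom, 0 of the 10 members and 0% of all tested genes passed the threshold, an adjusted p-value below 0.05 with more than a 2-fold difference. At an unadjusted p-value under 0.05 there were 2 members, ITGA1 and ITGB1, against 5.82% of all genes lower and 6.07% higher. The quasi-likelihood test of edgeR also put 0 members and 0% of genes past the threshold, with 2 members at an unadjusted p-value under 0.05. The Wald test of DESeq2 put 1 member (ITGA1) and 1.62% of genes past it. Since this contrast chose the members, nothing is read from these counts. Without GFP replicate 3, limma voom put 2 members (ITGA1, lower, and ITGB6, higher) and 4.16% of genes past the threshold. In replicates 1 and 2 alone it put 3 members past it, ITGA1 lower (5.15% of all genes were called lower) and ITGA2 and ITGB6 higher (3.21% were called higher).

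The members' differences were next compared between libraries that carry the same replicate number. In log2 CPM, POU5F1B minus GFP, ITGA1 differed by −4.55, −4.36 and −2.52 in replicates 1, 2 and 3, and ITGB1 by −0.44, −0.33 and −0.76. ITGAV was lower in each as well, by −0.35, −0.15 and −0.34. The other 7 members had 1 sign in replicates 1 and 2 and the opposite sign in replicate 3. Of these, ITGA2 differed by 1.16, 1.12 and −0.86, ITGB6 by 1.72, 2.28 and −1.17, and ITGB5 by −0.70, −0.55 and 0.80. ITGA6 and ITGB4 were higher in POU5F1B replicates 1 and 2 (by 0.52 and 0.46, and by 0.44 and 0.16), and ITGA3 and ITGA5 lower (by −0.52 and −0.53, and by −0.27 and −0.41). The sign was shared by replicates 1 and 2 in 10 of 10 members and in 78.2% of all tested genes, and by all 3 numbers in 3 of 10 members and in 36.7% of all tested genes.

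**Figure D3:**
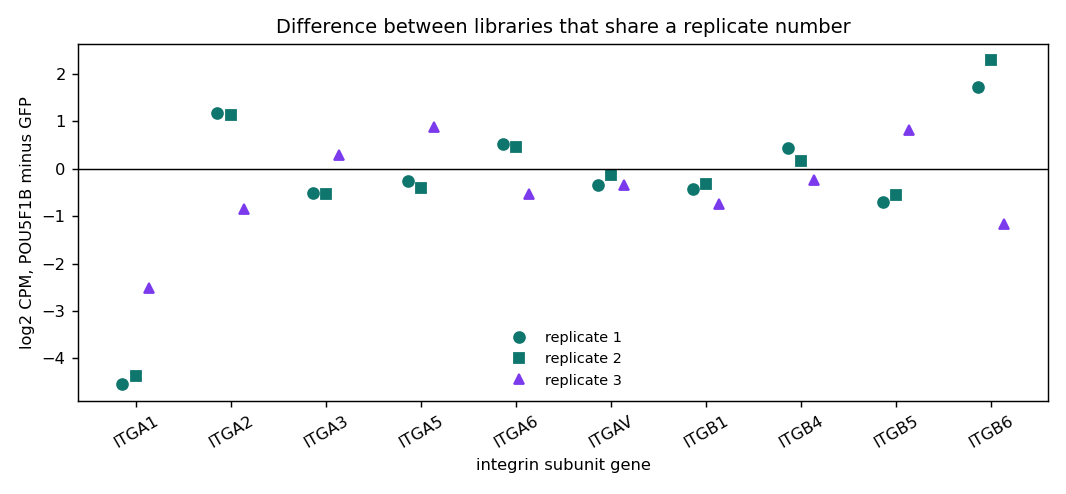
Difference in log2 CPM, POU5F1B minus GFP, between libraries with the same replicate number, for the 10 members; circles and squares are replicates 1 and 2, triangles replicate 3, and the line is 0. ITGA1, ITGAV and ITGB1 lie below 0 in all 3, and the triangle lies across the line from the other symbols in the other 7.

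GFP replicate 3 itself was set against the mean of GFP replicates 1 and 2. There ITGB6, ITGA2, ITGB4, ITGA6 and ITGB1 were higher in replicate 3, by 2.37, 1.01, 0.79, 0.46 and 0.29 in log2 CPM. ITGB5, ITGA5, ITGA3, ITGAV and ITGA1 were lower, by −1.83, −1.19, −1.04, −0.68 and −0.50. For ITGA1 this shift within the control group was small beside the difference between the groups, and for ITGB1 too it was the smaller of the pair, while for the other 8 members it exceeded the fitted difference between the groups. The part of this library in the members' differences was not tested beyond leaving it out.

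To compare subunits with each other, levels were divided by the exon length of each gene. On this scale, CPM per kb of exon, ITGB5 was highest in GFP cells at 148 ± 81.8, followed by ITGA6 (52.1 ± 10.0), ITGA3 (42.6 ± 15.6), ITGB4 (37.8 ± 12.9), ITGB1 (19.5 ± 2.36), ITGA5 (10.95 ± 4.37), ITGA1 (7.64 ± 1.45), ITGA2 (5.54 ± 2.45), ITGAV (5.22 ± 1.34) and ITGB6 (0.546 ± 0.572; all SD, n = 3). Among these, the ranges of ITGB4 and ITGB1 and those of ITGB1 and ITGA5 did not overlap. The first 4 overlapped from each to the next, and so did ITGA1, ITGA2 and ITGAV, while ITGB6 lay below all of them. With ITGA7, a non-member, counted in, ITGA1 ranked 8 of 17 integrin subunit genes in GFP cells. In POU5F1B cells it was 0.598 ± 0.382 CPM per kb (SD, n = 3) and ranked 12, next to ITGB6 at 0.793 ± 0.243, with which it overlapped. ITGB5 (115 ± 17.6) and ITGA6 (58.0 ± 12.4) remained the highest in POU5F1B cells and no longer overlapped. The order depends on the length. Divided by the longest transcript, ITGA3 (76.2 ± 27.98 CPM per kb) came before ITGA6 (59.8 ± 11.5) and ITGB1 (50.5 ± 6.13) before ITGB4 (43.3 ± 14.8) in GFP cells, each pair overlapping, and ITGB4 and ITGA5 did not overlap. On that scale ITGA1 was 13.2 ± 2.50 in GFP and 1.03 ± 0.659 in POU5F1B cells (SD, n = 3), rank 7 and rank 9 of the 10 members. Only length was divided out, so an annotated exon that these cells do not use lowers the value of its gene.

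The collagen-binding α chains include ITGA1, the gene through which the set was chosen. Their shares and sum therefore largely restate its values and support nothing further. The CPM of ITGA2 itself overlapped between the groups, as given above. ITGA1 made up 64.5%, 63.7% and 41.4% of the summed CPM per kb of ITGA1, ITGA2 and ITGA10 in GFP replicates 1, 2 and 3, against 3.78%, 4.05% and 17.5% in the POU5F1B libraries. ITGA2 made up 30.04%, 32.6% and 57.7% in GFP and 94.7%, 94.7% and 77.9% in POU5F1B cells, and ITGA10 at most 5.50% in any library. ITGA11, the remaining gene of this kind, did not pass the filter. GFP replicates 1 and 2 held more ITGA1 than ITGA2 per length and the POU5F1B libraries more ITGA2. Divided by the longest transcript instead, the share of ITGA1 was 75.1%, 74.7% and 54.7% in GFP and 6.30%, 6.73% and 26.5% in POU5F1B replicates 1, 2 and 3. For GFP replicate 3 the length used thus decided which of the 2 genes had the larger share. The sum of the 3 genes was 12.75, 13.7 and 14.5 CPM per kb in GFP and 9.08, 10.2 and 5.91 in POU5F1B cells, without overlap.

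Among the laminin-binding α chains ITGA3 made up 40.5 ± 11.7% in GFP and 34.7 ± 2.62% in POU5F1B cells, and ITGA6 51.5 ± 15.6% and 58.5 ± 4.61% (SD, n = 3). These shares overlapped between the groups. Among the β chains known to pair with αV, ITGB5 made up 91.8%, 90.8% and 69.6% in GFP and 87.3 to 89.6% in POU5F1B cells, and ITGB6 at most 1.54%. Of the summed α chains that pair with β1, ITGA1 was 5.73%, 6.22% and 5.17% in GFP replicates 1, 2 and 3 and 0.257%, 0.317% and 1.02% in POU5F1B replicates 1, 2 and 3, so it was a minor part in both groups.

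**Figure D4:**
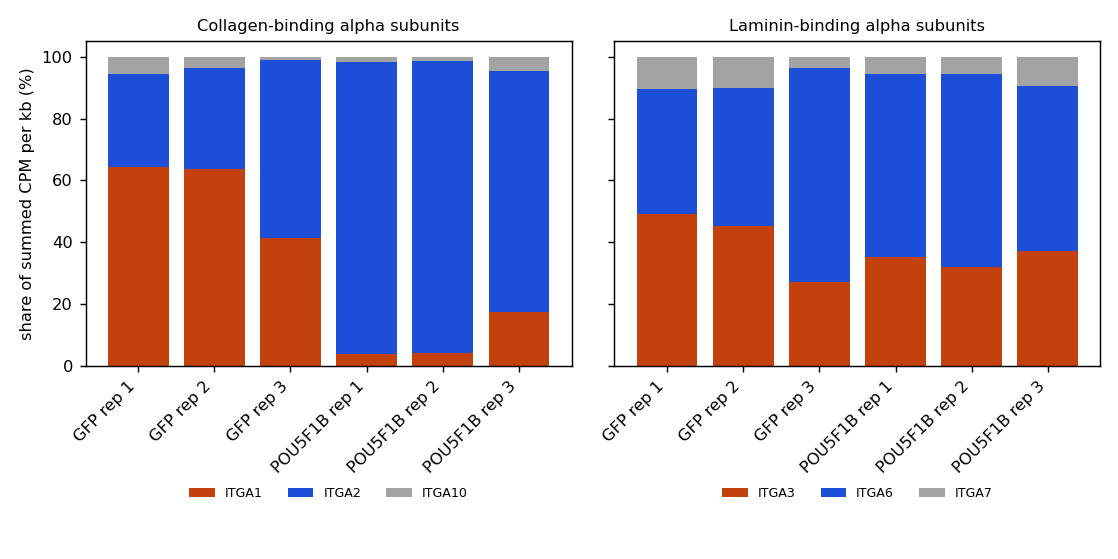
Share (%) of the summed CPM per kb of exon that each gene holds in each library, for the collagen-binding (left) and the laminin-binding (right) α subunits. ITGA1 fills 41.4 to 64.5% of the left bars in GFP libraries and 3.78 to 17.5% in POU5F1B libraries, and on the right the groups overlap.

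The integrin genes outside the set were mostly low. Of the 16, 9 did not pass the filter. Among them ITGA4, ITGA8, ITGAD and ITGAL had no counts in any library. ITGB7, also under the filter, had 3, 1 and 44 counts in GFP and 2, 1 and 38 in POU5F1B replicates 1, 2 and 3. ITGA7, a laminin-binding chain gene, was the most abundant, with 106, 96.9 and 29.3 CPM in GFP and 55.2, 52.9 and 70.3 CPM in POU5F1B cells (log2 difference −0.20 ± 0.48, SE; limma voom adjusted p = 0.905). ITGAE, whose chain binds E-cadherin, was 20.6 to 26.5 CPM in GFP and 24.8 to 32.6 CPM in POU5F1B cells (0.25 ± 0.18; limma voom adjusted p = 0.617). ITGB8, which encodes a further partner of αV, was 0.927, 1.14 and 5.22 CPM in GFP and 7.24, 6.03 and 2.25 CPM in POU5F1B cells. Like ITGB6, it was high in GFP replicate 3 and in POU5F1B replicates 1 and 2 (1.38 ± 0.73; limma voom adjusted p = 0.509). ITGA10, a collagen-binding chain gene, was 4.38, 3.20 and 0.870 CPM in GFP and 0.865, 0.834 and 1.67 CPM in POU5F1B cells (−1.10 ± 0.68; limma voom adjusted p = 0.568). ITGB2, ITGA2B and ITGAX had log2 differences of 0.71, 0.67 and 0.42 and at most 4.82 CPM. None of the 7 passed the threshold, and their median log2 difference was 0.42, against −0.02 over all tested genes.

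The proteins around integrins were examined as lists of ligands, cytoplasmic partners and membrane partners, 133 entries with the other subunits, of which 102 were tested. With limma voom, 0 of the 102 passed the threshold and 13 had an unadjusted p-value under 0.05, with 6 higher and 7 lower in POU5F1B cells. These are 12.7% of the 102, against 11.9% of all tested genes (6.07% higher and 5.82% lower), and the counts of the single lists below are to be read against the same shares. The quasi-likelihood test of edgeR put 0 past the threshold, with 15 at an unadjusted p-value under 0.05, and the Wald test of DESeq2 put 4 past it (CAV1, COL1A1 and TGFB2 lower, TGFBI higher), or 3.92%, against 1.62% of all tested genes. The median log2 difference of the 102 was −0.01. The groups did not overlap for 11 higher and 6 lower genes of the 102, against 10.2% and 9.24% of all tested genes. Genes named below had the smallest limma voom p-values of their lists, a choice that favours groups without overlap. Without GFP replicate 3, limma voom put 15 of the 102 past the threshold, with 4 higher and 11 lower, or 14.7%, against 4.16% of all tested genes. In replicates 1 and 2 alone 18 passed, with 6 higher and 12 lower, or 17.6%, against 8.36%. The lists were chosen with results of these libraries known, so these shares are a description.

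Ligands of the collagen receptors came first. Of 11 tested collagen genes, 0 passed and 1 (9.09%) had an unadjusted p-value under 0.05, with a median log2 difference of 0.10. COL1A1, which encodes a chain of type I collagen, was 142, 118 and 16.9 CPM in GFP and 6.76, 5.56 and 9.49 CPM in POU5F1B cells (−3.22 ± 1.09, SE; limma voom adjusted p = 0.340). The groups did not overlap, but GFP replicate 3 lay closer to the POU5F1B libraries than to GFP replicates 1 and 2. COL1A1 is also a fibroblast marker. In the GFP libraries it made up most of the summed fibroblast markers given above, but not in the POU5F1B libraries. COL4A2 and COL6A1, of basement membrane and microfibrillar collagens, had log2 differences of −0.45 and 0.75 (limma voom adjusted p = 0.431 and 0.514).

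Of 7 tested laminin genes, 0 passed and 2 (28.6%) had an unadjusted p-value under 0.05. LAMB1, which encodes a β chain of basement membrane laminins, was 185, 181 and 156 CPM in GFP and 122.5, 122 and 155 CPM in POU5F1B cells (−0.39 ± 0.14, SE; limma voom adjusted p = 0.353). LAMA3, which encodes an α chain of epithelial laminin, had a log2 difference of 0.57 ± 0.43 (limma voom adjusted p = 0.637) and, like ITGA2, was high in GFP replicate 3.

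Among 16 tested genes of RGD-containing and other ligands, 4 (25%) had an unadjusted p-value under 0.05, 1 higher and 3 lower, and the median log2 difference was −0.40. TGFBI, a secreted protein that binds collagens and several integrins, was 100.9, 89.9 and 80.1 CPM in GFP and 311, 310 and 211 CPM in POU5F1B cells (1.601 ± 0.19, SE; limma voom adjusted p = 0.132). TGFB2, a TGF-β that is secreted in latent form, was 64.5, 59.7 and 27.3 CPM in GFP and 7.16, 6.67 and 7.83 CPM in POU5F1B cells (−2.71 ± 0.43; limma voom adjusted p = 0.185). TNC, the matrix protein tenascin-C, was 170, 114 and 68.4 CPM against 41.0, 41.2 and 76.1 CPM (−1.12 ± 0.39; limma voom adjusted p = 0.350). The groups of TGFBI and TGFB2 did not overlap, and those of TNC did. In the whole list of 16 they did not overlap for 1 higher and 1 lower gene.

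On the cytoplasmic side, of 27 tested activators, adaptors and plaque proteins 1 (3.70%) had an unadjusted p-value under 0.05. This was FERMT2, which encodes a kindlin that activates integrins, at 73.0, 72.4 and 59.7 CPM in GFP and 39.4, 42.1 and 43.1 CPM in POU5F1B cells (−0.72 ± 0.14, SE; limma voom adjusted p = 0.195), without overlap. TNS1, a tensin gene, and TLN2, a talin gene, had log2 differences of −1.12 and −0.57 (limma voom adjusted p = 0.436 and 0.440). Of 19 tested kinase and signalling genes 2 (10.5%) had an unadjusted p-value under 0.05. CAV1, which encodes caveolin, a scaffold that links integrins to Src-family kinases, was 69.3, 66.1 and 65.3 CPM in GFP and 17.7, 20.9 and 35.7 CPM in POU5F1B cells (−1.50 ± 0.24; limma voom adjusted p = 0.185). PTK2B, which encodes a kinase related to focal adhesion kinase, was 28.7, 31.2 and 28.02 CPM against 53.3, 46.3 and 40.4 CPM (0.66 ± 0.16; limma voom adjusted p = 0.235). In both the groups did not overlap, and in both POU5F1B replicate 3 lay nearest to GFP. In the whole list of 19 the groups did not overlap for 2 higher genes and 1 lower gene. CRKL, an adaptor gene, had a log2 difference of 0.19 (limma voom adjusted p = 0.489).

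Of 15 tested membrane partners and hemidesmosome genes 3 (20%) had an unadjusted p-value under 0.05, all higher in POU5F1B cells, and the median log2 difference was 0.27. SDC4, the focal adhesion proteoglycan syndecan-4, was 225, 236 and 175 CPM in GFP and 425, 453 and 301 CPM in POU5F1B cells (0.88 ± 0.20, SE; limma voom adjusted p = 0.220). CD82, a tetraspanin that associates with integrins, was 35.0, 34.2 and 72.4 CPM against 88.6, 82.3 and 78.7 CPM (0.92 ± 0.28; limma voom adjusted p = 0.304). CD81, another tetraspanin gene, had a log2 difference of 0.29 (limma voom adjusted p = 0.358). The groups did not overlap for any of these 3 genes. In the whole list of 15 they did not overlap for 6 higher genes and 1 lower gene.

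**Figure D5:**
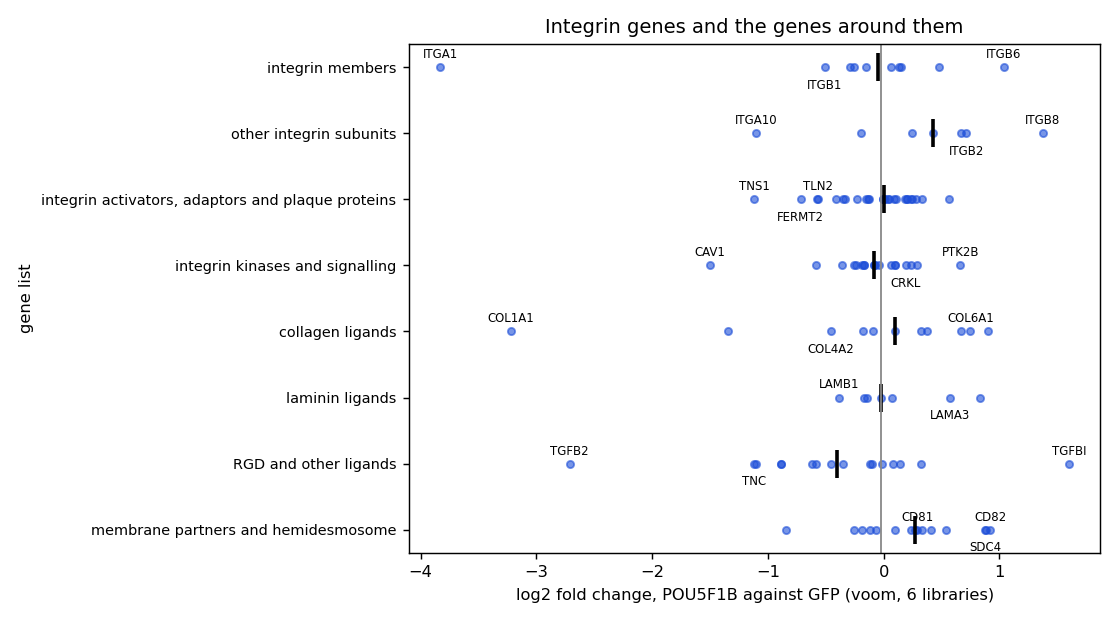
Log2 fold change, POU5F1B against GFP (voom, 6 libraries), of each tested gene in the integrin set and in 7 lists of related genes; black bars are list medians, the grey line is the median of all tested genes, and names mark the genes given in the text. ITGA1 at −3.83 lies farthest from 0, followed by COL1A1 at −3.22, and 7 of the 10 members lie within 0.5 of 0.

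The genes whose levels ran most like those of ITGA1 over the 6 libraries were FAT1 (Pearson's r of log2 CPM 0.999), TULP4 (0.998), HDLBP (0.997), NSD1 (0.995) and ATP6V1F (0.995), among 9721 genes with a mean of at least 10 CPM. This is a description of 6 libraries in 2 groups, in which any gene lower in every POU5F1B library and least so in replicate 3 comes out high. FAT1, an atypical cadherin gene, was 1796, 1750 and 1471 CPM in GFP and 282, 282 and 543 CPM in POU5F1B cells, and its log2 difference of −2.25 was smaller than that of ITGA1. HDLBP had a log2 difference of only −0.19. Of the other members, ITGB1 was the most like ITGA1 (0.844), and ITGA2 (−0.628) and ITGB6 (−0.603) ran most opposite to it.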

How the data were processed

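The authors deposited 1 table of raw read counts for each library, keyed by Ensembl identifier and not normalized. For these counts, the authors mapped reads to hg19 with HISAT2 and counted uniquely mapped reads with featureCounts over genes and transposable elements; the strand setting and annotation release are not given in the sources used here, so overlapping genes are uncertain. Groups and replicate numbers came from the sample titles. The members and gene lists were chosen with earlier results of these data known.

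In R 4.3.3, filterByExpr and TMM scaling (edgeR 4.0.16) left 14286 genes, which were fitted with limma voom 3.58.1 as in the study's methods; p-values were adjusted by Benjamini-Hochberg over all of them. Log2 CPM used a prior count of 2. Exon lengths came from a GENCODE annotation on GRCh37, the same build as hg19. Promoter windows came from RefSeq and were found for 8 of the 10 members (not ITGA3 and ITGB4). The text names the 10 members, the other integrin genes that passed the filter, the 3 genes with the smallest p-values of each list (1 of them is not reported here), the tested neighbours of ITGA1 and the 5 genes most like it. Of 178 list entries 176 were matched. No pair of libraries in a group agreed within sampling noise (chi-square over its degrees of freedom was 4.21 for the closest). Alternatives were edgeR's quasi-likelihood test, DESeq2 1.42.0, sample quality weights, 3 other scalings, 2 other filters, a replicate block, replicates 1 and 2 only, leaving out each library, ITGA1 and PELO summed, and the longest transcript as the length. The fits were tested on simulated data. Protein sequences were not used here.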

Additional observations from a re-analysis of the deposited data

How the results depend on the processing

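The 10 log2 differences were recomputed under 17 alternatives each, and of 170 values 153 kept their direction and their side of the threshold, 9 kept the direction and passed the threshold, and 8 reversed. Summing ITGA1 and PELO left the counts of the other members untouched, so their agreement under that alternative was fixed in advance. ITGA1 stayed negative throughout, from −4.50 in replicates 1 and 2 alone to −2.12 summed with PELO, and from −4.31 to −3.50 when each library was left out. ITGA5 was −0.03 with edgeR and with DESeq2 (−0.028 and −0.032), −0.29 with quality weights and −0.35 in replicates 1 and 2 alone, and ran from −0.34 (without GFP replicate 3) to 0.29 when each library was left out. On leaving out each library, ITGB4 ran from −0.04 (−0.042 without GFP replicate 2) to 0.38 and ITGB5 from −0.77 to 0.20, with 0.12 without GFP replicate 2. The cause of these reversals was not tested.

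The counts past the threshold depended on the test and the libraries. In place of 0 of all genes, 0 members and 0 related genes, DESeq2 gave 232, 1 and 4, quality weights 1077, 2 and 16, and replicates 1 and 2 alone 1194, 3 and 18. With every gene of at least 1 count in total, 4 genes passed, 1 of them a member (ITGA1). Leaving out each library gave 0 to 595 genes, 0 to 2 members and 0 to 15 related genes, with the highest counts without GFP replicate 3 and 5 genes without POU5F1B replicate 3. edgeR, the other 3 scalings and the filter of 10 counts in every library each gave 0, 0 and 0. Under a replicate block, 1 gene, 0 members and 0 related genes passed. Deviations from the group means correlated by 0.242, 0.0883 and 0.165 between libraries of the same number. Libraries of different numbers were not compared, so these values do not decide whether the numbers pair the libraries.

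With the longest transcript in place of all exons, the mean level over the 6 libraries moved to 68.5 CPM per kb for ITGA3, 16.03 for ITGA5, 11.6 for ITGAV, 42.9 for ITGB1 and 193 for ITGB5. That of ITGA1 went from 4.12 to 7.11, less than its SD over the 6 libraries (3.97), which spans both groups. At this depth a difference in ITGB6, at 12 to 80 counts, was measured with the largest counting error of the members, and every error rests on 3 libraries a group.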
